A study of Mus musculus with 4 samples.

Results

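The 10 genes described here encode the histone methyltransferase MLL, the cofactors that MLL and its leukemic fusions rely on, and the core shared by the H3K4 methyltransferase complexes. They were taken by gene symbol from a deposited table of 55339 genes, and all 10 were found there: Kmt2a, Men1, Psip1, Dot1l, Mllt1, Mllt3, Ash2l, Wdr5, Rbbp5 and Dpy30. The set was chosen by known role, but with the knockout and WT expression values of these libraries already known. The differences below are therefore given as a description, with no test of their own.

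Polyadenylated RNA of leukemia cells from C57BL/6 bone marrow was sequenced. The WT group holds 2 libraries, replicates 4 and 5, and the group of genotype YBX1-/- holds 2 libraries, replicates 1 and 3, whose titles carry the label cKO. The labels name no leukemia driver, Cre line, mouse age or treatment for either group, and do not say whether replicates came from separate animals, so differences between replicates may be technical. In the titles the prefix is RNA-seq2 for knockout replicate 3 and RNA-seq1 for the other 3 libraries. This difference cannot be told apart from the knockout in that library. YBX1 binds RNA and DNA through its cold-shock domain, and by its title the series asks how it acts on mRNA stability and on the survival of myeloid leukemia cells.

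MLL, encoded by Kmt2a, places methyl marks on lysine 4 of histone H3 and keeps developmental genes such as the HOXA cluster active. Like its relatives it works on a shared core of WDR5, RBBP5, ASH2L and DPY30. In leukemias with an MLL translocation, the N-terminal part of MLL stays bound to menin and LEDGF and is joined to a partner such as AF9 or ENL, which brings in DOT1L and the transcription elongation machinery.

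Values are log2 expression as the authors deposited them, with no counts and with a normalization whose method is not given in the sources used here, so library depth is unknown. The values of WT replicate 4 were distributed unlike those of the others. Of 7816 genes whose median in those 3 libraries lay between 5 and 10, 48.7% lay between 5 and 6 in WT replicate 4, against 12.2% to 14.5% in each other library, and 9.3% lay at 10 or more, against 1.1% to 2.0%. Of the 8 genes of the set in that range, 4 lay between 5 and 6 in WT replicate 4. Each comparison is therefore given against both WT libraries and against WT replicate 5 alone. Ybx1 itself was at 19.70 in WT replicate 4, 10.002 in WT replicate 5, and 7.29 and 8.33 after knockout. The 14 myeloid markers were present in all libraries, with 12 to 14 of them at 5 or more. Their summed level on the log2 scale was 24.36 in WT replicate 4, 16.66 in WT replicate 5, and 17.14 and 17.18 in the knockout libraries. Among markers of other cell types, Gp1bb, Cd3e, Cd3g, Cd8a, Cd4, Gzmb, Col3a1 and Lepr were listed at 0 in all 4 libraries. Others reached 5 in all 4 libraries, namely Tfrc, Cd79b, Ighm, Pecam1 and Nkg7. Tfrc lay at 7.31 to 8.72, Cd79b at 5.16 to 7.41, Ighm at 5.23 to 8.32 and Pecam1 at 6.10 to 6.93. Itga2b reached 5 in WT replicate 5 alone, at 5.41. The summed level of the erythroid, B cell, megakaryocyte and stromal marker lists, on the log2 scale, lay at 3.85 to 8.82 in WT and at 2.73 to 8.90 in knockout libraries. That of the T and NK list was at 19.38 and 8.47 in WT and at 9.38 and 9.47 in knockout libraries, nearly all of it from Nkg7. The part of these levels in the differences below was not tested. In bulk RNA, fewer cells of a type and less RNA per cell cannot be told apart.

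The 4 core subunit genes and Men1 had both knockout values above both WT values, by the widest margin for Ash2l, and Kmt2a had both below. Mllt1 lay lower than in WT replicate 5 only, and Psip1, Dot1l and Mllt3 overlapped between the groups. Of the 10 genes, 5 had both knockout values above both WT values, beside 17.3% of the 17303 genes tested, and 1 had both below, beside 18.8%. Against WT replicate 5 alone, 7 lay above and 2 below, beside 41.8% and 33.4% of all genes. Among the 9144 genes at log2 5 or more in at least 2 libraries, 30.8% lay above both WT values and 9.3% below. That filter left out Mllt3 and kept the counts of 5 above and 1 below in the set. The median difference from WT replicate 5 was 0.34 over the set and 0.07 over all genes tested. A fit across all genes with limma called 0 of the 10 genes, beside a percentage called of 0 over all genes at an adjusted p under 0.05. At an unadjusted p under 0.05 it had 651 genes, 117 higher and 534 lower in knockout, and 0 of the 10. The authors' deposited table called 1 gene of the set higher, Ash2l, beside 0.157% of genes, and 1 lower, Kmt2a, beside 3.96%.

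**Figure D1:**
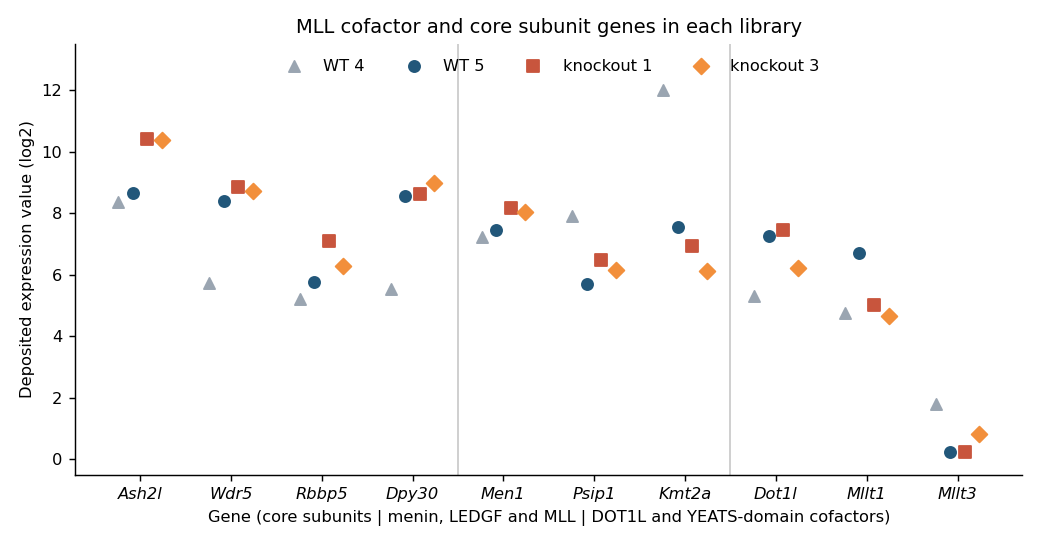
Deposited log2 expression (vertical axis) of the 10 genes (horizontal axis) in each library, 1 symbol per library. Both knockout symbols lie above both WT symbols for Ash2l, Wdr5, Rbbp5, Dpy30 and Men1, and below them for Kmt2a, whose WT replicate 4 value is 11.99.

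Promoters are shown for 4 genes that differ in direction: Kmt2a and Mllt1, lower in both knockout libraries than in WT replicate 5, and Men1 and Rbbp5, higher than both WT libraries. Each is the 250 bases before the first start listed in RefSeq (GRCm38.p6), 5′ to 3′ on the gene's strand, and capitals mark CCAAT on either strand (ATTGG on the printed one). The table held 8 of the 10 genes, without Ash2l and Psip1.
Kmt2a (chr9:44881290-44881539, minus strand): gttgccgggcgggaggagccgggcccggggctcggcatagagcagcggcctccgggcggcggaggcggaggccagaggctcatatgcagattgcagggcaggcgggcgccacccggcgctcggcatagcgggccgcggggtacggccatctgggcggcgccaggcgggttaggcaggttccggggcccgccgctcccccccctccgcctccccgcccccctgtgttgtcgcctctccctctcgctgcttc
Mllt1 (chr17:56935389-56935638, minus strand): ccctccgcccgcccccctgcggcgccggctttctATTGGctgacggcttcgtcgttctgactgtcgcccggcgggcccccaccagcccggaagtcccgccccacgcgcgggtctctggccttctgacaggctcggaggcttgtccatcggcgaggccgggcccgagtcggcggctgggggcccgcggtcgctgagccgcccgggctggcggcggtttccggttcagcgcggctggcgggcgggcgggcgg
Men1 (chr19:6334729-6334978, plus strand): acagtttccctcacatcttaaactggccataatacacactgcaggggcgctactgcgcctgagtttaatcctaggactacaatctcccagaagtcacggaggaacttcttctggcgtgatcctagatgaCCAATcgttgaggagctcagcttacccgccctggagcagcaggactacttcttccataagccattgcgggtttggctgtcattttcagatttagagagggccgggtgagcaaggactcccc
Rbbp5 (chr1:132477117-132477366, plus strand): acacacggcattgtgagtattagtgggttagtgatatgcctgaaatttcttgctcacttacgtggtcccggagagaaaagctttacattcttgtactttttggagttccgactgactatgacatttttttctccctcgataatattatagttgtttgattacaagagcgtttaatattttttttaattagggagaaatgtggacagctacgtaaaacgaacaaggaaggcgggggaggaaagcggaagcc
MLL carries a CXXC domain that binds unmethylated CpG, and YBX1 is named for the Y-box, a promoter element with an inverted CCAAT. The window of Kmt2a held 29 CpG and no CCAAT, and that of Mllt1 held 37 CpG and 1 CCAAT. The window of Men1 held 8 CpG and 1 CCAAT, and that of Rbbp5 held 10 CpG and no CCAAT. The median over the windows of 27025 genes was 6 CpG, and 34.5% of them held CCAAT on either strand. Both genes with lower knockout values thus have promoters richer in CpG than the other pair, in a choice of 4 genes made after their values were seen. Dot1l, with knockout values on both sides of WT replicate 5, had 44 CpG. Mllt3, whose groups overlapped, had 23. Wdr5 and Dpy30, higher than both WT libraries, had 12 and 1. A link between CpG and direction was not tested.

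Kmt2a (chromosome 9, 44803355 to 44881296, minus strand, GRCm38) encodes the catalytic subunit. It was at 11.99 and 7.56 in WT replicates 4 and 5 and at 6.92 and 6.13 in knockout replicates 1 and 3. Both knockout values were below both WT values, but the WT libraries lay 4.43 apart, further than any knockout value lay from WT replicate 5. The difference of the means was -3.25 (SE 1.62), with WT at 9.77 ± 3.13 and knockout at 6.53 ± 0.56 (SD, n = 2 each). Against WT replicate 5 alone it was -1.03, a 2.05-fold lower level, beside a gap of 0.79 between the knockout libraries. The authors' deposited table gives Kmt2a an adjusted p of 0.00375 and a log2 fold change of -4.09. Of 681 lower calls in the authors' deposited table, 577 belong to genes that lay over 3 log2 higher in WT replicate 4 than in WT replicate 5, as Kmt2a did, against 13.7% of all genes tested. The labels do not say whether these cells carry an MLL fusion, and reads of a fusion transcript are not told apart here from those of Kmt2a or Mllt3.

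Ash2l (chromosome 8, 25815996 to 25847694, minus strand) encodes the core subunit that binds DPY30 and stimulates methylation of H3K4. It was at 8.38 and 8.67 in WT and at 10.41 and 10.37 in knockout libraries. The 4 values formed a low WT pair and a high knockout pair with no overlap, and WT replicate 4 was close to WT replicate 5 here. WT was at 8.53 ± 0.20 and knockout at 10.39 ± 0.03 (SD, n = 2 each), a difference of 1.86 (SE 0.83). Against WT replicate 5 alone it was 1.72, a 3.29-fold higher level. By the gap between the lower knockout and the higher WT value, 1.70, Ash2l stood at place 48 of the 3000 genes with both knockout values above both WT values. The log2 fold change in the authors' deposited table was 2.54, with an adjusted p of 0.027, 1 of 27 genes called higher there. After quantile normalization of all 4 libraries the difference was 3.46.

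Rbbp5 (chromosome 1, 132477365 to 132505659, plus strand), whose product bridges the catalytic subunit to WDR5 and ASH2L, was at 5.20 and 5.76 in WT and at 7.09 and 6.29 in knockout libraries. The groups did not overlap, but knockout replicate 3 lay only 0.52 above WT replicate 5. The difference was 1.21 (SE 0.71), and 0.93 from WT replicate 5, a 1.90-fold higher level, beside a gap of 0.81 between the knockout libraries. After quantile normalization of all 4 libraries the difference was 0.60.

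Wdr5 (chromosome 2, 27515157 to 27536535, plus strand), the scaffold that holds the core to MLL, was at 5.74 and 8.40 in WT and at 8.84 and 8.72 in knockout libraries. Dpy30 (chromosome 17, 74299474 to 74323944, minus strand), the small subunit bound by ASH2L, was at 5.54 and 8.56 in WT and at 8.64 and 8.98 in knockout libraries. In both genes WT replicate 4 was the low library, at differences of -2.66 and -3.03 from WT replicate 5. The differences of the means, 1.71 (SE 1.09) and 1.76 (SE 1.19), came down to 0.38 and 0.24 without it. Dpy30 in knockout replicate 1 lay only 0.07 above WT replicate 5.

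Men1 (chromosome 19, 6334979 to 6340891, plus strand) encodes menin, the adaptor between the MLL N terminus and LEDGF. It was at 7.24 and 7.46 in WT and at 8.17 and 8.03 in knockout libraries. The groups did not overlap, and both pairs were narrow, at 7.35 ± 0.15 and 8.10 ± 0.10 (SD, n = 2 each). The difference was 0.75 (SE 0.65), and 0.64 from WT replicate 5, a 1.56-fold higher level. After quantile normalization of all 4 libraries the difference was 0.37 and the groups overlapped.

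Psip1 (chromosome 4, 83455680 to 83486459, minus strand) encodes LEDGF, which tethers menin and MLL to chromatin. It was at 7.91 and 5.69 in WT and at 6.49 and 6.16 in knockout libraries, so both knockout values fell between the WT values. The difference of the means, -0.48, turned to 0.63 without WT replicate 4.

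Dot1l (chromosome 10, 80755206 to 80795461, plus strand) encodes the H3K79 methyltransferase that MLL fusions recruit. It was at 5.32 and 7.26 in WT and at 7.44 and 6.21 in knockout libraries, with a gap of 1.22 between the knockout libraries, the widest of the set. Knockout replicate 1 lay above WT replicate 5 and knockout replicate 3 below it.

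Mllt1 (chromosome 17, 56892611 to 56935415, minus strand) encodes ENL, a YEATS-domain reader of acylated histones and a frequent MLL fusion partner. It was at 4.76 and 6.72 in WT and at 5.02 and 4.66 in knockout libraries. Both knockout values lay near WT replicate 4 and below WT replicate 5, by 1.71 and 2.06, which is a 3.70-fold lower mean level. The difference from both WT libraries was -0.90 (SE 0.94), and it was 0.08 without WT replicate 5. The authors' deposited table lists Mllt1 with a log2 fold change of -1.34 and a p-value of 1, as it does for 1549 of 17185 genes tested here that have a fold change.

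Mllt3 (chromosome 4, 87769925 to 88033364, minus strand) encodes AF9, the YEATS-domain relative of ENL and another fusion partner. It was at 1.80 and 0.23 in WT and at 0.23 and 0.83 in knockout libraries, the lowest values of the set. Knockout replicate 1 and WT replicate 5 differed by less than 0.01, so the count of Mllt3 among the 7 genes above WT replicate 5 rests on almost no difference.

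**Figure D2:**
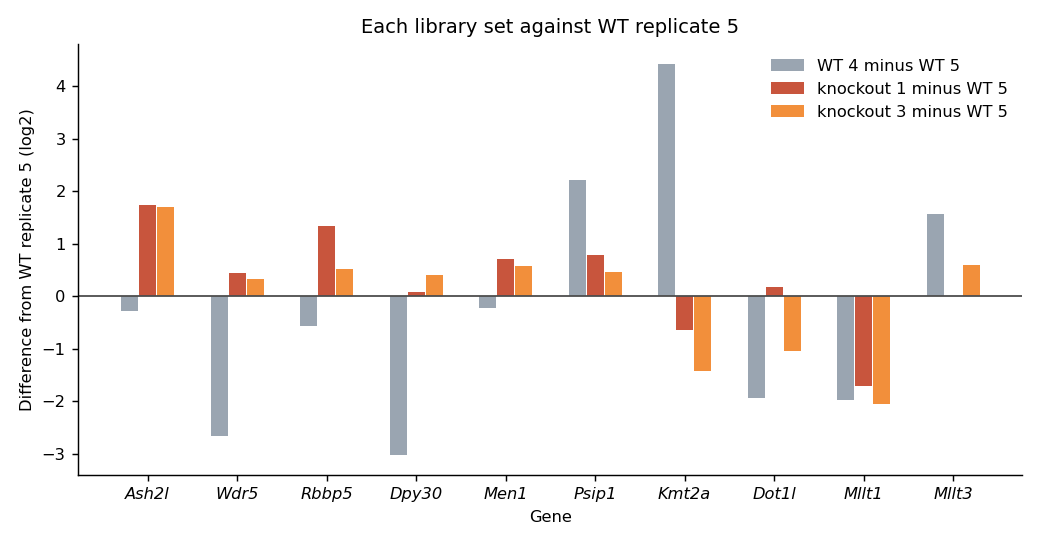
Bars give the log2 difference of WT replicate 4 and of each knockout library from WT replicate 5 (vertical axis) for each gene (horizontal axis). The knockout bars of Ash2l are at 1.74 and 1.70 and those of Mllt1 at -1.71 and -2.06, while the WT replicate 4 bars run from -3.03 for Dpy30 to 4.43 for Kmt2a.

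Differences between 2 genes within a library do not depend on how libraries were scaled by a constant. Ash2l minus Wdr5 was 0.27 in WT replicate 5 and 1.57 and 1.64 in the knockout libraries. Ash2l minus Dpy30 was 0.11 in WT replicate 5 and 1.78 and 1.39 in the knockout libraries. In WT replicate 4 these differences were 2.65 and 2.84, above the knockout values, so against these 2 partners Ash2l shifted in 1 direction from WT replicate 5 and in the other from WT replicate 4. Ash2l minus Rbbp5 was 3.18 and 2.91 in WT and 3.32 and 4.08 in knockout libraries, higher in knockout with a gap smaller than either pair's spread. Ash2l minus Men1 was 1.14 and 1.21 in WT and 2.24 and 2.34 in knockout libraries, with no overlap. Wdr5 minus Dpy30 stayed between -0.25 and 0.20 in all 4 libraries. Kmt2a minus Men1 was 4.74 and 0.10 in WT and -1.25 and -1.90 in knockout libraries, and Kmt2a minus Ash2l was 3.60 and -1.11 against -3.49 and -4.23. Both differences were lower in each knockout library than in each WT library.

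Levels were compared between genes per kilobase of summed exon length (GENCODE M21), as log2 levels in WT replicate 5 and the knockout libraries. Dpy30 was highest, at 8.37 to 8.78, followed by Ash2l at 5.51 to 7.25 and Wdr5 at 6.55 to 6.99, whose ranges overlapped. Men1 lay at 5.52 to 6.23, inside the range of Ash2l and below that of Wdr5. Rbbp5 lay at 3.79 to 5.12, below Men1 and overlapping with Dot1l, at 3.09 to 4.31. Psip1 at 3.35 to 4.14, Mllt1 at 2.69 to 4.75 and Kmt2a at 2.07 to 3.50 overlapped with their neighbours. Mllt3 was lowest, at -3.35 to -2.76. In WT replicate 4 the order differed, with Kmt2a highest at 7.93 per kilobase.

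The other catalytic subunits of H3K4 methyltransferase complexes are Kmt2b, Kmt2c, Kmt2d, Setd1a and Setd1b. With Kmt2a, all 6 lay below WT replicate 5 in each knockout library, beside 33.4% of all genes tested. All 4 core subunits lay above it, beside 41.8%. With the filter at log2 5, 4 of the 6 catalytic genes were tested, without Kmt2b and Setd1a. All 4 lay below, beside 3219 of 9144 genes. With quantile normalization, of all 4 libraries or without WT replicate 4, the 6 catalytic genes still lay below. Of the 4 core genes, 3 lay above, with Dpy30 on both sides. In either of these settings, 6402 of all 17303 genes lay below WT replicate 5 and 5943 above it. The split into catalytic and core subunits was chosen after the values were seen. Kmt2b was at 4.80 and 6.01 in WT and at 4.01 and 3.85 in knockout libraries. Kmt2c was at 5.31 and 8.15 in WT and at 6.44 and 6.45 in knockout libraries. Kmt2d, the most highly expressed of them in WT replicate 5, was at 7.84 and 11.25 in WT and at 9.72 and 9.30 in knockout libraries. The levels below WT replicate 5 were 4.23-fold, 3.26-fold and 3.35-fold lower. Setd1b was at 5.17 and 7.40 in WT and at 6.14 and 5.92 in knockout libraries, and Setd1a at 4.53 and 4.50 against 3.68 and 4.17. Against both WT libraries only Kmt2a, Kmt2b and Setd1a of the 6 lay lower, beside 18.8% of all genes tested. Kmt2c, Kmt2d and Setd1b were lowest in WT replicate 4.

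Exon length moved with this split. The catalytic genes have 6.80 to 20.29 kb of summed exons and the core genes 1.15 to 8.97 kb. Among 9030 genes whose median in WT replicate 5 and the knockout libraries reached 5, the median difference from WT replicate 5 was 0.20 under 2 kb, 0.09 from 2 to 4 kb, 0.00 from 4 to 8 kb, -0.17 from 8 to 12 kb and -0.40 from 12 kb. From 12 kb, 55.8% of 500 genes lay below WT replicate 5 in each knockout library, and 16.6% above it. The interquartile range of those genes ran from -0.85 to 0.05, and Kmt2a at -1.03, Setd1b at -1.37, Kmt2c at -1.71 and Kmt2d at -1.74 lay below it. Ash2l, at 8.97 kb, lay 1.72 above WT replicate 5 where the interquartile range of genes of 8 to 12 kb ran from -0.62 to 0.28. Wdr5 at 0.38, Dpy30 at 0.24 and Dot1l at -0.44 lay inside the interquartile range of their length class. Rbbp5 at 0.93 and Men1 at 0.64 lay above that of 2 to 4 kb. Psip1 at 0.63 lay above that of 4 to 8 kb, which ran from -0.42 to 0.46. The medians of Kmt2b, Setd1a and Mllt3 did not reach 5, so these genes are not set against a length class. Mllt1, at 3.92 kb, had a difference of -1.89 where the interquartile range of genes of 2 to 4 kb ran from -0.30 to 0.48. The part of length in these differences was not tested further.

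**Figure D3:**
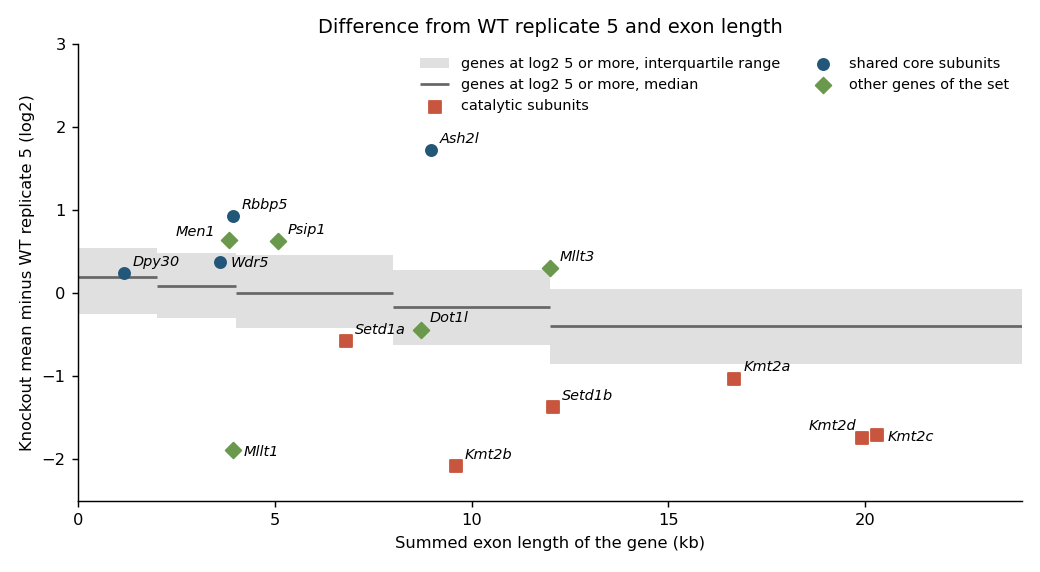
Knockout mean minus WT replicate 5 (vertical axis, log2) against summed exon length (horizontal axis, kb) for the 10 genes and 5 further catalytic subunits. Lines and shading give the median and interquartile range of genes whose median in those 3 libraries reached 5, from 0.20 for the shortest to -0.40 for the longest class, and all 6 catalytic subunits lie below 0. The medians of Kmt2b, Setd1a and Mllt3 did not reach 5.

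Further genes of the pathway were taken as 58 genes in 5 lists, of which 54 were tested, and limma called 0 of them. At an unadjusted p under 0.05 there was 1, Eya1 of the MLL target genes. Of 13 other methyltransferases and partner subunits, 0 exceeded both WT libraries and 3 were below them, beside 17.3% and 18.8% of all genes tested. Against WT replicate 5 alone, 2 lay above and 6 below, beside 41.8% and 33.4%, with a median of -0.58. This list includes Kmt2b, Kmt2c, Kmt2d, Setd1a and Setd1b, described above, which all lay below WT replicate 5. Of its partner subunits only Bod1l lay below it, Kdm6a and Paxip1 lay above, and the rest had knockout values on either side. Bod1l, a SETD1A complex subunit, was at 7.33 and 7.43 in WT and at 6.70 and 6.56 in knockout libraries, lower in both with narrow pairs.

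Of 14 elongation partners of MLL fusions, 3 lay above both WT libraries and 4 below, beside 17.3% and 18.8% of all genes tested. Against WT replicate 5 alone, 4 lay above and 9 below, beside 41.8% and 33.4%, with a median of -0.55. Aff4, the scaffold of the super elongation complex, was at 7.10 and 7.01 in WT and at 6.12 and 6.32 in knockout libraries, with no overlap. On the other side, the ELL-associated factor gene Eaf1 was at 5.58 and 7.47 against 8.08 and 7.94, and the elongation kinase gene Cdk9 at 5.26 and 6.89 against 7.26 and 6.96. In both, WT replicate 4 was the lowest library.

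Of 6 genes of the PAF1 complex, which binds MLL on chromatin, 3 exceeded both WT libraries and 0 were below them. Over all genes tested these shares were 17.3% and 18.8%. Against WT replicate 5 alone, 3 lay above and 3 below, beside 41.8% and 33.4% of all genes, with a median of 0.01. WT replicate 4 was low in this list, at a median of -1.45 from WT replicate 5. Rtf1 was at 5.21 and 6.09 in WT and at 6.79 and 6.87 in knockout libraries, and Cdc73 at 5.02 and 5.65 against 6.15 and 6.17. The H3K4 demethylase list held 7 tested genes, counting the corepressor gene Rcor1. Of these 7, 2 exceeded both WT libraries and 0 were below them, beside 17.3% and 18.8% of all genes tested. Against WT replicate 5 alone, 2 lay above and 2 below, beside 41.8% and 33.4%, and the median was 0.05. Here too WT replicate 4 was low, at a median of -1.88 from WT replicate 5. Kdm1b, a demethylase of the LSD family, was at 4.76 and 3.86 in WT and at 5.16 and 6.32 in knockout libraries, and Kdm2b at 5.44 and 7.32 against 7.82 and 7.34.

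Of 14 tested MLL target genes, 4 exceeded both WT libraries and 3 were below them, beside 17.3% and 18.8% of all genes tested. Against WT replicate 5 alone, 6 lay above and 7 below, beside 41.8% and 33.4%, so the list had genes on both sides. The median from WT replicate 5 was -0.18. Hoxa5 was at 4.54 and 3.70 in WT and at 5.38 and 5.41 in knockout libraries. Eya1, a transcriptional coactivator, lay 2.42 above WT replicate 5, while the authors' deposited table lists it with a log2 fold change of -5.53 and a p-value of 1. Cdk6, a cell cycle kinase, was at 21.29 and 15.44 in WT and at 14.69 and 13.68 in knockout libraries, and Jmjd1c at 20.45 and 9.26 against 8.49 and 8.41. Hoxa10 was at 18.53 in WT replicate 4 and at 8.53, 8.90 and 8.79 in WT replicate 5 and the knockout libraries. The authors' deposited table called Cdk6 and Hoxa10 lower, with log2 fold changes of -5.72 and -8.72, although both knockout values of Hoxa10 lay above WT replicate 5.

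**Figure D4:**
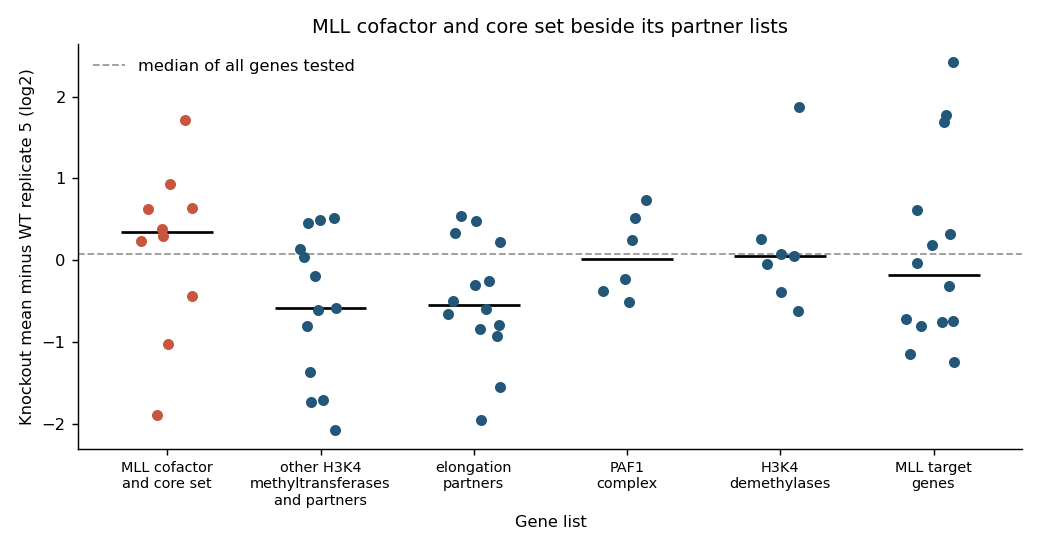
Knockout mean minus WT replicate 5 (vertical axis, log2) for each tested gene of the set and of 5 partner lists (horizontal axis), with list medians as black lines and the median of all genes tested, 0.07, as a dashed line. Medians run from -0.58 for the other methyltransferases and partner subunits to 0.34 for the set.

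Within these lists, the gene with the most similar pattern over the 4 libraries was found for each member by the root mean square distance of values centred on each gene's mean. The closest pairs were Wdr5 with Hoxa9 at 0.12, Mllt3 with Eaf2 at 0.15, Men1 with Cdc73 at 0.16 and Dot1l with Rcor1 at 0.18. Mllt3 and Eaf2 were both low, with Eaf2 at 1.98 and 0.43 in WT and at 0.67 and 0.85 in knockout libraries. The B cell marker Vpreb3, also low, was at 1.4 and 0.07 against 0.07 and 0.06. Ash2l was nearest to Rtf1, at 0.40. Each distance is the smallest over the 54 tested genes of the lists, and none was set against distances over all genes tested. It rests on 4 values per gene and includes WT replicate 4. Shared regulation was not tested.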

How the data were processed

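Values of 4 libraries were read from 1 deposited table. Its sample columns hold log2 expression values deposited by the authors, with a normalization that is not given in the sources used here. Counts are lacking, so depth and counting precision are unknown. The table also holds the authors' deposited log2 fold change, p-value and adjusted p-value. The header of the fold change column names WT first. Over 17185 genes its values were higher where knockout minus WT in the sample columns was higher (Pearson's r = 0.78, genes not being independent replicates), so it is read as knockout over WT. CASAVA, HISAT2 2.1.0, featureCounts, DESeq2 and GRCm38 are named per the submitters' processing notes, with no role or order.

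After the 30280 rows listed at 0 in all 4 libraries were left out, genes at log2 0 or more in at least 2 libraries, 17303 in all, were fitted with limma 3.58.1 (mean-variance trend, R 4.3.3) on the log2 values, with Benjamini-Hochberg adjustment and a threshold of 0.05. All 10 members passed the filter. SE is limma's moderated standard error. Positions and exon lengths come from GENCODE M21 (GRCm38), where all 10 symbols matched. Which annotation the counting used is not given in the sources used here. Members, lists, comparisons and alternatives were chosen with earlier results of these data known. Named partner genes were, in each list, up to 4 with a deposited adjusted p under 0.05 and the 2 with the widest gap above and the 2 below both WT values. Some genes that this rule or the marker lists hold are not reported here. Also named, chosen after their values were seen, were the catalytic subunits Kmt2c, Kmt2d, Setd1a and Setd1b. Alternatives changed the filter, the scaling, the pseudocount and the libraries included.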

Additional observations from a re-analysis of the deposited data

How the results depend on the processing

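The differences of Kmt2a, Men1, Ash2l, Wdr5, Rbbp5 and Dpy30 kept their direction in all 11 alternatives run for each. The groups of these genes did not overlap. Leaving out 1 library, changing the filter or adding a pseudocount therefore could not reverse their direction. Only centring and quantile normalization could have done so. The differences of the other 4 genes did not keep their direction. Without WT replicate 4 the difference was 0.63 for Psip1, -0.44 for Dot1l and 0.30 for Mllt3, and with quantile normalization of the remaining libraries 0.68, -0.42 and 0.12. Quantile normalization of all 4 libraries gave -0.08 for Dot1l and 0.17 for Mllt3, and moved Wdr5 to 0.84, Dpy30 to 1.0 and Psip1 to -1.0. Dot1l was at -0.08 without knockout replicate 1, and Mllt1 at 0.08 without WT replicate 5. Over the leave-one-out fits Kmt2a ran from -5.46 to -1.03, Psip1 from -1.59 to 0.63, Dot1l from -0.44 to 1.51, Mllt1 from -1.89 to 0.08, Mllt3 from -1.27 to 0.30, Wdr5 from 0.38 to 3.05 and Dpy30 from 0.24 to 3.27. With the filter at log2 5 Mllt3 was not tested.

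Limma called 0 to 4960 genes when 1 library was left out: the fit lacking WT replicate 4 gave 0, that lacking WT replicate 5 4960, that lacking knockout replicate 1 26 and that lacking knockout replicate 3 88. The lone library of a group is assumed there to vary like the others. The number of the 10 genes with both knockout values above both WT values was 3 after quantile normalization, beside 23.5% of all genes, and 5 to 7 with 1 library left out, beside 23.8% to 41.8%. The number below was 2 after centring the libraries, beside 19.3%, 2 without WT replicate 4 with quantile normalization, beside 37%, and 1 to 3 with 1 library left out, beside 25.2% to 50.7%. Centring moved the median difference of all genes from -0.09 to -0.23 and quantile normalization moved it to 0.16. The median difference from both WT libraries over the other methyltransferases and partner subunits was -0.04. It turned to 0.02 with the filter at log2 5, 0.08 without knockout replicate 3 and 0.39 without WT replicate 5. With 1 library left out it ran from -0.58 to 0.39. The same range was -0.55 to 0.05 for the elongation partners and -0.63 to 0.56 for the MLL target genes. It turned from -0.37 to 0.05 for the elongation partners and from -0.06 to 0.56 for the MLL target genes without WT replicate 5, to 0.06 for the target genes without knockout replicate 3, and from 1.0 to -0.04 for the PAF1 complex without WT replicate 4 with quantile normalization. With 1 library left out the PAF1 median ran from 0.01 to 1.67 and that of the demethylases, at 1.20, from 0.05 to 1.80, with the lowest value of each without WT replicate 4. The causes were not tested. No paired analysis was possible because the groups share no replicate number.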
